A study of Mus musculus with 3 samples.

Results

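The CC chemokine genes Ccl2, Ccl3, Ccl4, Ccl5, Ccl6, Ccl7, Ccl8, Ccl9 and Ccl12, which lie in a pair of clusters on mouse chromosome 11, were measured in RNA bound to chromatin. They were chosen by symbol and are 9 of the 55536 annotated genes, 22028 of them protein-coding. The cells were primary macrophages grown from bone marrow of C57BL/6J mice and treated with lipid A at 100 ng/ml for 120 min. Lipid A is the lipid part of lipopolysaccharide from bacterial outer membranes and is sensed by the receptor TLR4. The study holds 1 group of 3 libraries of total RNA depleted of ribosomal RNA, biological replicates 1, 2 and 3, made from 1 µg, 250 ng and 500 ng of RNA respectively. All 3 carry the lipid A treatment, so no untreated level exists here to set the values against. The labels give all 3 libraries the same donor entry and no age or sex, and do not say whether they came from separate animals, so every test below measures only the spread between these libraries.

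CC chemokines are small secreted proteins, named for a pair of adjacent cysteines near their amino end, that draw leukocytes along a gradient by binding G protein-coupled receptors of the CCR family. Several of their genes are classical targets of the TLR4 pathway in macrophages, where NF-kappa B and interferon regulatory factors act on them. RNA on chromatin is enriched in nascent transcripts that have not been fully spliced, so its level follows transcription more closely than the level in the cytoplasm does, and introns can still be present in it.

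The members are shown first by the reading frame around the cysteine pair, since this stretch defines the family and shows how far the paralogs differ in letters. Each stretch is 42 nt of the coding sequence of the GENCODE M21 reference transcript (build mm10), and capitals mark the paired cysteine codons.
Ccl2: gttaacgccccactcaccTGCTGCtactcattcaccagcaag
Ccl7: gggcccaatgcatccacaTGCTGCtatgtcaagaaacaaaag
Ccl12: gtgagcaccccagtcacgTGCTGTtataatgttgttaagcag
Ccl8: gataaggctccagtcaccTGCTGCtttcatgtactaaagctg
Ccl5: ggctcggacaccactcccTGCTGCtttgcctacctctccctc
Ccl9: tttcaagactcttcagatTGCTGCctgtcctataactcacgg
Ccl6: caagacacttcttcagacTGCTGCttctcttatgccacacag
Ccl3: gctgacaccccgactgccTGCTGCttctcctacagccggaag
Ccl4: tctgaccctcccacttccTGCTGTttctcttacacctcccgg
On the plus strand these lie at chr11:82036488-82036529 (Ccl2), chr11:82046520-82046561 (Ccl7), chr11:82102616-82102657 (Ccl12), chr11:82115312-82116079 (Ccl8, where the stretch crosses a splice junction) and chr11:83663464-83663505 (Ccl4). On the minus strand they lie at chr11:83529224-83529265 (Ccl5), chr11:83575908-83575949 (Ccl9), chr11:83589368-83589409 (Ccl6) and chr11:83648634-83648675 (Ccl3). The pair was written TGCTGC in 7 members and TGCTGT in 2, Ccl12 and Ccl4, which belong to different clusters. Each coding sequence held 1 such pair.

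The first cluster, called the Ccl2 block here, holds Ccl2, Ccl7, Ccl12 and Ccl8 within 81229 nt (chromosome 11, 82035571 to 82116799), all on the plus strand. The second, the Ccl5 block, holds Ccl5, Ccl9, Ccl6, Ccl3 and Ccl4 within 138906 nt (83525778 to 83664683), where Ccl4 is on the plus strand and the other members on the minus strand. A gap of 1408978 nt separates the blocks. Coding sequences were most alike for Ccl3 and Ccl4 (66.7% identical nucleotides), followed by Ccl9 and Ccl6 (64.8%) and Ccl12 and Ccl8 (64.4%). Pairs within a block shared 43.9% to 64.4% in the Ccl2 block (median 55.7%) and 43.9% to 66.7% in the Ccl5 block (median 49.2%). Pairs from different blocks shared 38.1% to 55.6% (median 49.5%). Since paralogs can share reads, each member's transcripts were searched for exact windows of 50 nt that occur in a transcript of another gene. No window was shared between members. The transcripts of 8 members shared none with any other gene on either strand, and Ccl9 shared 59 of its 2996 windows (1.97%) with transcripts of many unrelated genes. In the deposited gene table the posterior SD of the count, which is above 0 where reads fit more than 1 gene, was 0 in every library for 9 of 9 members, against 67.1% of 14184 genes whose counts averaged 10 or more.

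Libraries held 19751051, 20372850 and 21984526 expected counts in annotated genes. Macrophage markers were present (9 of 9 at a mean of 1 TPM or more, TPM being counts divided by transcript length and scaled to the same total in every library), while none of the 28 listed markers of T and NK cells, B cells, neutrophils, mast cells and basophils, eosinophils, fibroblasts and endothelium reached it in the gene table. In the gene table the summed TPM of any of these 6 lists in any library ranged from 0 to 1.95. There 9 of the 28 markers were listed at 0 in every library. Replicate 2 stood apart. Its median TPM was 77.8 for 12 mature cytoplasmic RNAs, against 20.8 and 24.3 in replicates 1 and 3, and 297 for 6 mitochondrially encoded RNAs, against 27.4 and 25.4. The median of 5 RNAs kept in the nucleus was 784, 774 and 926 TPM in replicates 1, 2 and 3. Levels and variation of the members are therefore also given without replicate 2 where it changes them most.

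All 9 members were detected at a mean of at least 1 TPM, a threshold passed by 41.5% of protein-coding genes, and with the other quantifier, a separate transcript table made from the reads themselves, all 9 passed it as well, against 50.9%. With that quantifier 3 of the 28 markers of other cell types also passed. Cd3d of the T and NK cell list had a mean of 7.68 TPM there. Pdgfra of the fibroblast and endothelial list and Mpo of the neutrophil list had 1.06 and 1.05 TPM. The median of the members' means was 121 TPM, against 0.277 TPM over all protein-coding genes and 7.53 TPM over those at 1 TPM or more. Their TPM summed to 973, 2041 and 1385 in replicates 1, 2 and 3 (1467 ± 539, SD, n = 3), which was 0.658% of the summed TPM of protein-coding genes. The Ccl5 block held 80.4% ± 2.87 of that sum (SD, n = 3). With the other quantifier the members summed to 1401, 1894 and 2248 TPM, so replicate 3 rather than replicate 2 was highest. Within each block the levels of neighbouring genes differed widely, from 6.08 to 152 TPM in the Ccl2 block and from 15.3 to 594 TPM in the Ccl5 block.

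**Figure D1:**
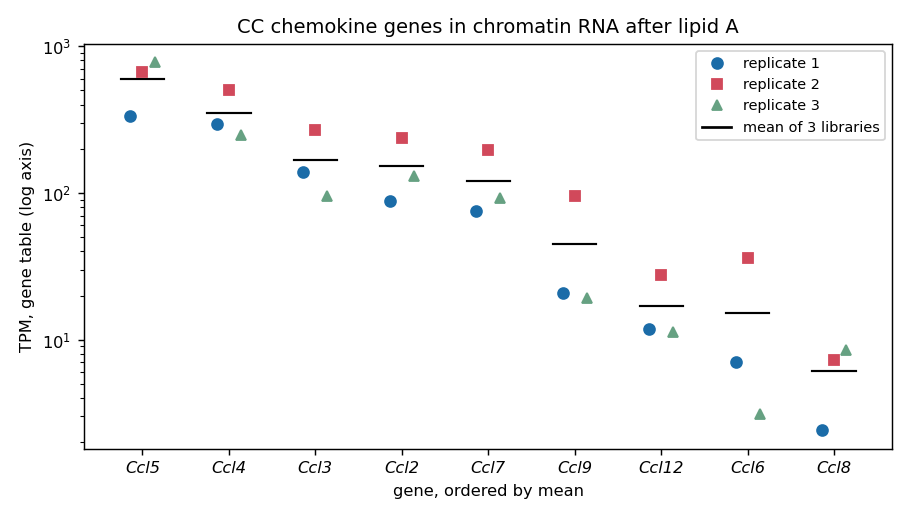
TPM of each member in the gene table on a log axis, with 1 symbol per library and a bar at the mean of 3 libraries, genes ordered by that mean. Replicate 2 is the highest library for all members but Ccl5 and Ccl8, which are highest in replicate 3, and means run from 594 TPM for Ccl5 to 6.08 TPM for Ccl8.

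Ccl5 encodes RANTES, a ligand of receptors that include Ccr1 and Ccr3, which attracts T cells, monocytes and eosinophils. It was measured at 334, 671 and 776 TPM in replicates 1, 2 and 3 (594 ± 231, SD, n = 3), above 99.9% of protein-coding genes. Replicate 1 was the low library and replicates 2 and 3 lay close together in the gene table. There Ccl5 did not follow the high values of replicate 2 seen in most other members. With the other quantifier Ccl5 had 484, 695 and 1168 TPM, with replicate 3 well above replicate 2.

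Ccl4 and Ccl3 encode MIP-1 beta and MIP-1 alpha, inflammatory chemokines that attract leukocytes, Ccl3 acting among others on Ccr1. Ccl4 had 294, 506 and 249.1 TPM (349.7 ± 137, SD, n = 3). Ccl3 had 139, 267 and 95.4 TPM (167 ± 89.3, SD, n = 3). In both genes replicate 2 was highest and replicate 3 lowest in the gene table. With the other quantifier Ccl4 had 445, 504 and 520 TPM, lowest in replicate 1 and highest in replicate 3. Ccl3 kept its order there, with 199, 223 and 166 TPM. The genes are neighbours whose starts are their near ends, so they are transcribed away from each other. Ccl4 was the higher of them in 3 of 3 libraries.

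Ccl2 encodes MCP-1, the main attractant of monocytes through the receptor Ccr2, and Ccl7 encodes MCP-3, which acts on Ccr2 and other receptors. Ccl2 had 88.4, 237 and 131 TPM (152 ± 76.5, SD, n = 3). Ccl7, the next gene after Ccl2 on the same strand, had 75.5, 195 and 92.3 TPM (121 ± 64.5, SD, n = 3). Both had their highest TPM in replicate 2 and their lowest in replicate 1, and Ccl2 was above Ccl7 in each library.

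Ccl12 encodes MCP-5, a rodent ligand of Ccr2, and Ccl8 encodes MCP-2, which in mice acts on the receptor Ccr8. Ccl12 had 11.9, 27.6 and 11.2 TPM (16.9 ± 9.25, SD, n = 3), with replicate 2 apart from the other libraries. With the other quantifier Ccl12 had 17.7, 27.0 and 26.9 TPM, so replicates 2 and 3 were nearly equal. Ccl8 was the lowest member, with 2.41, 7.27 and 8.55 TPM (6.08 ± 3.24, SD, n = 3), and it rested on 17, 39 and 50 counts. Even so it lay above 76.7% of protein-coding genes.

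Ccl9 and Ccl6 encode rodent ligands of Ccr1 that myeloid cells make, Ccl9 also being known as MIP-1 gamma. Ccl9 had 20.9, 94.8 and 19.3 TPM (45.0 ± 43.2, SD, n = 3). Ccl6 had 7.03, 35.8 and 3.14 TPM (15.3 ± 17.8, SD, n = 3). For both, replicate 2 was far above the other libraries, and the SD was close to or above the mean. Without replicate 2 the mean fell to 20.1 TPM for Ccl9 and 5.08 TPM for Ccl6, a change of more than 1.5-fold that no other member showed on leaving out any 1 library.

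Members next to each other in the order of levels were compared by the difference of log2(TPM + 0.1) within each library, and a difference was taken as beyond its spread where all 3 libraries had the same sign and the mean exceeded the SD. Ccl4 exceeded Ccl3 by 1.13 ± 0.24, and Ccl2 exceeded Ccl7 by 0.34 ± 0.14 (log2 differences, SD, n = 3). Ccl7 exceeded Ccl9 by 1.71 ± 0.62 and Ccl9 exceeded Ccl12 by 1.12 ± 0.57 on the same scale. These 4 steps were beyond their spread. The steps from Ccl5 to Ccl4 (0.74 ± 0.78), Ccl3 to Ccl2 (0.13 ± 0.56), Ccl12 to Ccl6 (0.73 ± 1.09) and Ccl6 to Ccl8 (0.79 ± 1.95) were not. With the other quantifier the steps from Ccl5 to Ccl4 (0.58 ± 0.53), Ccl3 to Ccl2 (0.60 ± 0.45) and Ccl12 to Ccl6 (1.53 ± 1.29) passed the same rule, while Ccl6 and Ccl8 changed order (-0.44 ± 1.93). With 3 libraries the exact two-sided sign-flip test cannot give a p below 0.25, or 0.4 after Benjamini-Hochberg adjustment over the 8 steps.

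Variation between libraries was examined on counts, scaled by trimmed-mean (TMM) library sizes and given as CPM, which is not divided by length. A chi-square test asked whether a gene's libraries differed by more than counting error. It called 68.8% of 14200 genes (Benjamini-Hochberg adjusted p under 0.05), and 9 of 9 members were among them, so being called says little about any member. Ccl8 had the largest adjusted chi-square p (0.0221), and the next was 2.88e-11 for Ccl12. The median coefficient of variation was 0.464 for the members and 0.232 for all genes tested, and without replicate 2 it was 0.358 and 0.215. Leaving out 1 library ended single calls. The call of Ccl8 was lost without replicate 1 (adjusted chi-square p = 0.778) and without replicate 3 (0.0537), and that of Ccl2 without replicate 2 (0.147).

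The size of the variation set the members apart from one another. Ccl6, with 6.35, 31.0 and 1.95 TMM-scaled CPM in replicates 1, 2 and 3, spanned 15.9-fold from its lowest to its highest library. Ccl9 had 63.4, 194 and 46.7 TMM-scaled CPM and spanned 4.16-fold. At the other end Ccl5 had 185, 251 and 277 and spanned 1.5-fold, with replicates 2 and 3 above replicate 1. The other 6 members spanned from 1.85-fold (Ccl2) to 3.09-fold (Ccl3). This order rests in part on replicate 2. Over replicates 1 and 3 alone Ccl6 still had the widest span, at 3.25-fold, but Ccl9 spanned 1.36-fold, less than Ccl5 at 1.5-fold, and Ccl2 had the narrowest, at 1.06-fold.

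Replicate 2 was the highest library of 7 of 9 members after this scaling, against 37.3% of protein-coding genes whose counts averaged 100 or more. The ratio of replicate 2 to the mean of replicates 1 and 3 had a median of 1.91 over the members and 1.03 over those 7162 genes. It was 7.48 for Ccl6 and 3.53 for Ccl9, and between 1.09 (Ccl5) and 2.07 (Ccl7) for the others. Ratios at or above that of Ccl6 occurred in 0.307% of the 7162 genes, and at or above that of Ccl9 in 1.93%. Mature cytoplasmic RNAs moved the same way, with replicate 2 the highest library for 12 of 12 and a median ratio of 3.31, as did mitochondrially encoded RNAs (6 of 6, median ratio 10.2). The macrophage markers had a median ratio of 1.77 and 7 of 9 were highest in replicate 2. Replicate 2 was also made from the smallest amount of RNA. The part of either in the members' values was not tested.

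**Figure D2:**
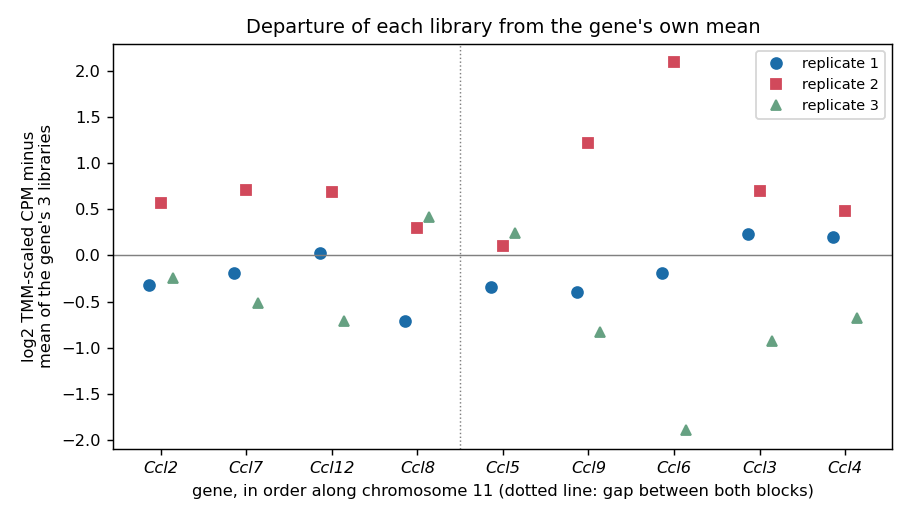
Log2 of TMM-scaled CPM in each library minus the mean of that gene's 3 libraries, for members in their order along chromosome 11, with 1 symbol per library. Ccl6 and Ccl9 show the widest spread, Ccl5 the narrowest over 3 libraries, and replicate 2 is the top symbol for all members but Ccl8 and Ccl5.

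As a description of pattern over the 3 libraries, genes were ranked by the Euclidean distance of their centred log2(TMM-scaled CPM + 0.5) values from those of each block's summed counts, among 8202 genes. Nearest to the Ccl2 block were Ybx1 (distance 0.014), Acp5 (0.022) and Rpl3 (0.023), and 131 genes lay within 0.2. For the Ccl5 block they were Sumo3 (0.022), Rpl18 (0.028) and Psen2 (0.032), with 239 genes within 0.2. Both block sums were highest in replicate 2, while Ccl5 and Ccl8 were highest in replicate 3, so a sum does not show the pattern of each member. Ybx1 encodes a protein that binds mRNA, and Rpl3 and Rpl18 encode ribosomal proteins. With 3 points per gene, many genes share any given pattern.

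Introns could be followed in 3 members for which the annotation holds an isoform with a retained intron, Ccl2, Ccl5 and Ccl6. The 9 members have 15 annotated transcripts, and 4 members (Ccl7, Ccl8, Ccl3 and Ccl4) have only 1, so unspliced RNA of those has no isoform of its own in the tables. The start of the retained intron is shown for 1 isoform of each gene, with the last 40 nt of the exon in lower case and the first 60 nt of the intron in capitals, because reads across this edge and beyond it belong to the retained isoform.
Ccl2-202: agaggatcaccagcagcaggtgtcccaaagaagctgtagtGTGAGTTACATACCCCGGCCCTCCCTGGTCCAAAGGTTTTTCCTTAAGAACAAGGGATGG
Ccl5-202: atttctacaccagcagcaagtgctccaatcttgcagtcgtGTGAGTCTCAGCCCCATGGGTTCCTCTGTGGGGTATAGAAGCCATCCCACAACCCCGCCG
Ccl6-203: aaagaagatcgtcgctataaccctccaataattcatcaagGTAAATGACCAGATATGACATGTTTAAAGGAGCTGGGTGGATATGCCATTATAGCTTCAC
These are chr11:82036561-82036660 on the plus strand, chr11:83529096-83529195 on the minus strand and chr11:83589697-83589796 on the minus strand (mm10). Each of the 3 introns opens with GT. Ccl2-202 spans the whole of intron 2 (325 nt), Ccl5-202 ends 428 nt into an intron 2 of 3091 nt, and Ccl6-203 holds 284 nt of an intron 2 of 342 nt. A further isoform, Ccl6-202, holds 71 nt of intron 1.

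For Ccl5, the highest member, the isoform with intron sequence took most of the signal. Ccl5-202 had 249.1, 436 and 604 TPM in replicates 1, 2 and 3, while the spliced coding isoform Ccl5-201 had 85.2, 235 and 172 TPM. The retained-intron share was thus 74.5%, 65.0% and 77.8% (72.4% ± 6.7, SD, n = 3). Over 5602 genes with such isoforms the median share was 45.9%, and Ccl5 stood at percentile 86.7 of them. With the other quantifier the share was 64.9% ± 3.8 (SD, n = 3) and the percentile 69.4.

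In Ccl2 the retained-intron share was lower and varied more. It was 36.7%, 22.9% and 56.5% in replicates 1, 2 and 3 (38.7% ± 16.9, SD, n = 3), which is percentile 38.3 of the same genes. The 2 retained-intron isoforms of Ccl6 together held 67.3%, 48.5% and 66.6% (mean 60.8%, percentile 73.3). Most of this was Ccl6-202 (mean 42.5%), with only 71 of its 776 nt outside the exons of the coding isoform. Its counts of 36.8, 168 and 16.4 had posterior SDs of 7.97, 20.7 and 4.36. Ccl6-203, the isoform shown above, held 18.3% on average, on 10.8, 7.63 and 2.99 counts. Replicate 2 was the lowest library for all 3 genes with both quantifiers, as it was for 41.9% of the 5602 genes in the gene-table quantifier's transcript table. The median share over all 5602 genes was 42.9%, 41.9% and 53.0% in replicates 1, 2 and 3. Replicate 2 also had more mature cytoplasmic RNA, as given above, and the part of that in the isoform shares was not tested.

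**Figure D3:**
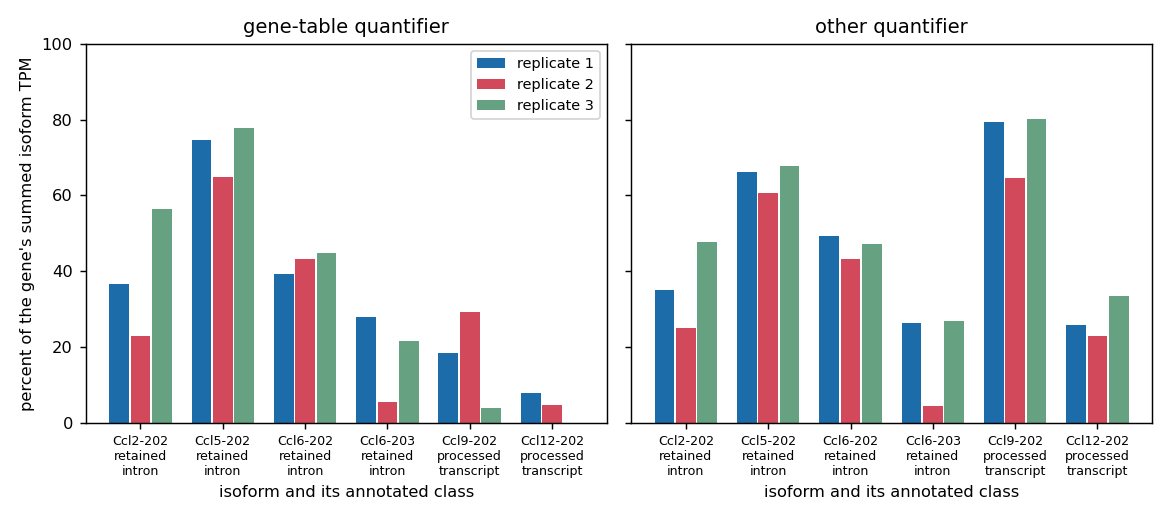
Percent of a gene's summed isoform TPM held by each retained-intron or processed-transcript isoform of the members, as bars per library that start at 0, with the gene-table quantifier on the left and the other quantifier on the right. Ccl5-202 is above 60% in every bar, and Ccl9-202 differs most between panels, at 17.1% on average on the left and 74.7% on the right.

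Both deposited ways of assigning reads were compared, since they start from the same reads and paralogs can share reads. The measure was the log2 ratio of TPM + 0.1, other quantifier over gene table, centred on the median of protein-coding genes in each library. Uncentred, that median was 0.39, 0.00 and 0.48 in replicates 1, 2 and 3. A gene was called where limma gave an adjusted p under 0.05 and the ratio was at least 1.5-fold. This called 26.4% of 10122 genes whose counts averaged 50 or more, 17.0% higher and 9.46% lower with the other quantifier (1716 and 958 genes). Without centring 2990 were higher and 148 lower, and on counts not divided by length 1350 and 70.

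Of the 8 members that passed the count filter, 1 was called. Ccl9 had 71.3, 120 and 80.3 TPM with the other quantifier, against 20.9, 94.8 and 19.3 TPM in the gene table. All 3 libraries were higher, replicate 2 least so, with centred log2 ratios of 1.37, 0.34 and 1.58 (mean 1.10, SE 0.24, limma adjusted p = 0.0103). Without replicate 3 the ratio was 0.86 and Ccl9 was no longer called (limma adjusted p = 0.0995). Ccl9 has a coding isoform, Ccl9-201, and a shorter processed transcript of 398 nt, Ccl9-202. Ccl9-202 took 1.31% of the gene's counts in the gene-table quantifier and 17.7% in the other, and because TPM divides by length it took 17.1% and 74.7% of the TPM. On counts not divided by length the log2 ratio of Ccl9 was -0.06 (limma adjusted p = 0.491). The high TPM of Ccl9 with the other quantifier therefore came with more reads placed on the short isoform, at a near-equal share of reads for the gene.

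The other 7 members tested differed less than 1.5-fold. Lower with the other quantifier were Ccl6 (log2 ratio -0.50, limma adjusted p = 0.011), Ccl2 (-0.41, 0.0111) and Ccl7 (-0.34, 0.039), which passed the p threshold and missed the fold. Without replicate 3, Ccl6 reached both (-0.59, limma adjusted p = 0.0363). Ratios of Ccl12 (0.31), Ccl4 (0.26), Ccl5 (0.10) and Ccl3 (0.06) did not pass the limma test, with adjusted p from 0.129 to 0.703. The median absolute ratio over all genes tested was 0.36. Ccl8 was below the count filter. When the filter was a mean count of 10, its log2 ratio was 0.69 (limma adjusted p = 0.00759). The order of the members was nearly the same by either quantifier, 7 of 9 holding the same rank, with Ccl6 and Ccl8 changing places. In the other quantifier the step from Ccl7 to Ccl9 shrank to 0.28 ± 0.24 on the log2 scale.

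**Figure D4:**
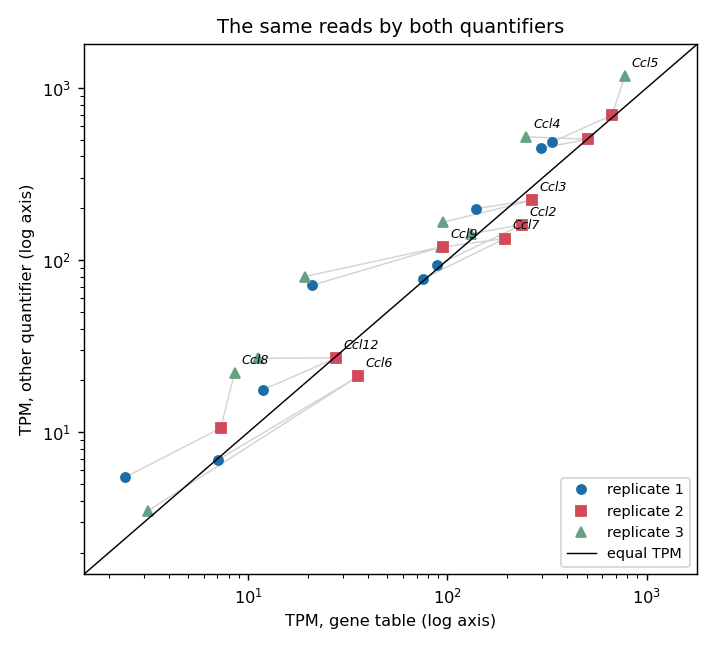
TPM of each member by the gene table (horizontal) and by the other quantifier (vertical), both on log axes, with 1 symbol per library, a grey line joining the libraries of a gene and a black line of equal TPM. Ccl9 in replicates 1 and 3 lies farthest above the line, and Ccl6 in replicate 2 lies below it.

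The signal was examined along the chromosome, in all 32 other annotated genes that lie inside the blocks or within 200 kb of them. Inside the blocks no gene other than the members reached a mean of 1 TPM in the gene table, and 3 did with the other quantifier (Ccl11, Gm17268 and the non-coding E230016K23Rik). Ccl11, which encodes the eosinophil attractant eotaxin, lies between Ccl7 and Ccl12 and had 0.20, 0.12 and 0.11 TPM on 4, 2 and 2 counts. With the other quantifier it had 0.877, 0.799 and 1.72 TPM. Ccl1, beyond the end of the Ccl2 block, was listed at 0 in every library. Neither coding gene within 200 kb before the Ccl2 block was above 0 in the gene table. In the gene table Ccl7 and Ccl12, which flank Ccl11, had means of 121 and 16.9 TPM, and with the other quantifier 110.05 and 23.9 TPM. Ccl11, Ccl1, Gm17268 and E230016K23Rik were singled out after their values were seen.

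Around the Ccl5 block 5 of the 12 flanking coding genes reached a mean of 1 TPM. Taf15, which encodes an RNA-binding protein of the transcription machinery, is the highest coding gene within 200 kb before it and had 42.5, 41.4 and 53.1 TPM (45.7 ± 6.46, SD, n = 3). Beyond Ccl4 the highest was Wfdc17, which encodes a small secreted protein of activated macrophages, with 13.9, 72.1 and 8.38 TPM (31.4 ± 35.3, SD, n = 3). Wfdc17 had its highest gene-table TPM in replicate 2 and its lowest in replicate 3, as Ccl3, Ccl4, Ccl6, Ccl9 and Ccl12 did. Taf15 was highest in replicate 3. Gm17268, an annotated coding gene whose span takes in Ccl2 on the opposite strand, was listed at 0 in the gene table and had 12.6, 20.6 and 29.7 TPM with the other quantifier. The annotated transcripts of Ccl2 share no window of 50 nt with any other gene on either strand, those of Gm17268 included.

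**Figure D5:**
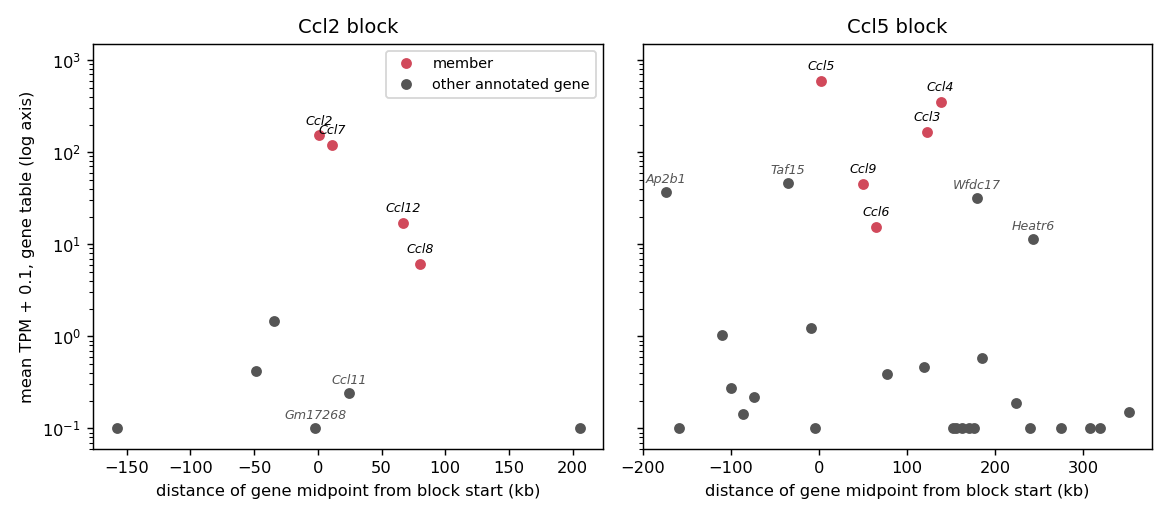
Mean TPM + 0.1 of 3 libraries in the gene table (log axis) against the distance of each gene's midpoint from the start of its block in kb, for members (red) and other annotated genes within 200 kb (grey, a few named; Asic2, a long gene whose midpoint falls outside the range, is left out). Members of the Ccl2 block stand above all their neighbours, while Taf15, Ap2b1 and Wfdc17 near the Ccl5 block have means of 31.4 to 45.7 TPM, near that of Ccl9.

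Start sites were available from the RefSeq promoter table (GRCm38.p6) for 5 members, Ccl12, Ccl8, Ccl9, Ccl6 and Ccl3. The 250 bases before each start were searched on both strands for GGGA followed by any base and TTTCC (a kappa B-like motif, in 0.356% of 32851 promoters), a pair of GAAA separated by any 2 bases (an interferon response-like motif, 2.98%), TGACTCA with its reverse complement TGAGTCA (AP-1, 4.46%) and TATAAA (12.4%). None of the 5 held any of the first 3 motifs in this window. TATAAA was present in 3 of 5. In Ccl12 it ran from base -31 to -26 before the start and in Ccl8 from -32 to -27, both on the strand of the gene. Ccl9 held it at -92 to -87 on that strand, and on the other strand at -94 to -89, which overlaps the first match, and at -224 to -219. The promoters of Ccl12 and Ccl8 are shown because these neighbouring genes carry the motif at almost the same distance, with TATAAA in capitals.
Ccl12: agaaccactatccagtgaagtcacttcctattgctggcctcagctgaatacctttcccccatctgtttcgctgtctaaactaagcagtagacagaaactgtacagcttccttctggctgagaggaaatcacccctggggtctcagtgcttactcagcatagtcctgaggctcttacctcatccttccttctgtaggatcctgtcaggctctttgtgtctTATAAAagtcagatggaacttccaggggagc
Ccl8: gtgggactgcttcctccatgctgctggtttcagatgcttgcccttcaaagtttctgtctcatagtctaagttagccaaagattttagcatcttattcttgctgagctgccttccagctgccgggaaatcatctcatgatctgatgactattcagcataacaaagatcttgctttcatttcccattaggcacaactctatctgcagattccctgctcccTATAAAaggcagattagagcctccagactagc
They lie at chr11:82101595-82101844 and chr11:82114935-82115184, both on the plus strand. With 16.9 and 6.08 TPM on average, Ccl12 and Ccl8 were among the lower members. Ccl9, also with TATAAA, had 45.0 TPM, and Ccl6 and Ccl3, without it, had 15.3 and 167 TPM. Any relation of the motif to level was not tested.

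Other genes of the CC chemokine system were taken from a list of ligands, receptors, atypical receptors and signalling proteins. Of 11 CC ligand genes outside the members, 1 reached a mean of 1 TPM in the gene table. It was Ccl25, known as a thymus and gut chemokine, with 2.76, 5.40 and 9.27 TPM (5.81 ± 3.27, SD, n = 3). It lay above the lowest member Ccl8 in replicates 1 and 3 in the gene table and below it in all 3 libraries with the other quantifier. With the other quantifier 4 of 11 reached 1 TPM.

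Of 11 CC receptor genes, 2 reached a mean of 1 TPM in the gene table and 5 with the other quantifier. Among them Ccr1, a receptor of Ccl3, Ccl5, Ccl6 and Ccl9, had 4.56, 12.9 and 4.45 TPM (7.29 ± 4.82, SD, n = 3), with replicate 2 again the highest, and a mean of 4.996 TPM with the other quantifier. Atypical receptors bind chemokines without G protein signalling. Of 5 listed genes for them and their relatives, only Ccrl2, a relative, reached 1 TPM, with 18.3, 46.5 and 19.0 TPM (27.9 ± 16.1, SD, n = 3).

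All 10 listed signalling genes downstream of the receptors reached 1 TPM. In the gene table the highest were Dock2, which activates Rac in migrating leukocytes, at 157 ± 21.02 TPM, and Rgs1, which shortens G protein signals, at 81.8 ± 11.0 TPM (SD, n = 3 each). Gnai2 (70.4 TPM), Gnb1 (50.6), Grk2 (37.2) and Arrb2 (31.3), which carry or end the receptor signal, followed in mean TPM. Rgs2 (4.97 TPM), Arrb1 (4.04), Gng2 (3.28) and Pik3cg (1.63) had lower means. With the other quantifier Dock2 was again the highest (128 TPM), followed by Gnb1 (125) and Gnai2 (96.7), and Rgs1 had 59.6. Replicate 2 was the highest library for 4 of these 10 genes after TMM scaling, against 7 of 9 members.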

How the data were processed

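Chromatin RNA was sequenced from inserts sized between 250 and 400 nt, as the labels state. The authors deposited gene and transcript tables of expected counts and TPM, made from transcriptome alignments to mm10 with GENCODE M21 per the labels of the files, and a further transcript table with estimated counts and its own TPM, made straight from reads, here called the other quantifier and summed per gene. The posterior SD of a count, which the authors deposited as a score beside it, describes the uncertainty of assigning reads. The aligner, both quantifiers' versions, any trimming, and whether strand was used in counting were not given in the sources used here. Entries matching no annotated gene held 0.845%, 0.282% and 0.179% of counts and were left out. Expected counts were rounded for the chi-square test. A floor of 3 counts corresponds to 0.152, 0.147 and 0.136 CPM and covers counting error only.

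With 1 group there is no contrast, so no count model between conditions was fitted. TMM factors came from edgeR 4.0.16, the moderated one-sample test from limma 3.58.1 (R 4.3.3), and alternative size factors from DESeq2 1.42.0. Each test was fitted on all annotated genes that passed its count filter, not on members alone. The filter was a mean count of at least 10 for variation and 50 for the quantifier ratio. Both tests were adjusted by Benjamini-Hochberg over those genes and tested on simulated data. The variation test recovered 55% of genes changed 1.5-fold in 1 library and 98% of those changed 3-fold, with 12 false calls of 14200 genes. Its simulated counts held counting error alone, so the false calls do not describe libraries that vary by more than that, as these did. The quantifier test recovered 74% of genes with a log2 ratio of 1 and 96% of those with 2, with 7 false calls of 10122 genes. Where a symbol had several entries, the one on an assembled chromosome with the highest mean TPM was used. Coding sequences were aligned globally with Biopython 1.88 (match 2, mismatch -1, gap opening -5, gap extension -1). Nucleotide identity replaced the planned protein identity, and the search of the opposite strand and the members' spans without replicate 2 were added after the data were seen.

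Named genes are all members, neighbours inside a block at 1 TPM or more, the highest coding flanking gene on each side, listed genes of the CC chemokine system at 1 TPM or more and the 3 genes per block nearest in pattern. Members and lists were chosen with earlier results of these data known. Alternatives were the other quantifier, other scalings, filters, pseudocounts and leaving out each library. A listed gene of the system is not reported here.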

Additional observations from a re-analysis of the deposited data

How the results depend on the processing

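All 9 members stayed at 1 TPM or more with the other quantifier and on leaving out any library, and at thresholds of 0.1 and 5 TPM. The Ccl5 block held 84.9% of the summed TPM with the other quantifier, and 79.4% to 82.09% on leaving out 1 library. In the order of levels 3 of 9 members held their rank on CPM, which is not divided by length, and 5 to 7 on leaving out 1 library. Genes differing between quantifiers numbered 1420 on counts not divided by length, 4597 with a mean count of at least 10 and 1323 with at least 200, against 2674. Members differing numbered 2 when the ratio was not centred (Ccl9 and Ccl12), 2 on counts not divided by length (Ccl4 and Ccl12, both higher) and 2 with a mean count of at least 10 (Ccl9 and Ccl8), against 1. The cause was not tested where no value above shows it. Counts of varying genes fell to between 6687 and 7755 on leaving out 1 library, when fewer libraries were compared. Scaling TPM to protein-coding genes alone multiplies all genes of a library alike and raised the means of all 9 members by more than their SD (Ccl9 to 198 TPM). The depth limits Ccl8 and Ccl11, which rest on few counts. No paired analysis was possible because the 1 group holds each replicate number once.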

Other observations

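Several genes near the blocks were seen by 1 quantifier alone. Of 32 neighbours, 15 were listed at 0 in every library of the gene table, and 6 of these had a mean of at least 1 TPM with the other quantifier, of which 1, Gm17268, is annotated as protein-coding. The highest among them was the small nucleolar RNA gene Gm23951, which lies within the span of Ap2b1 on the opposite strand, with 27.6, 29.4 and 43.9 TPM in replicates 1, 2 and 3. Ap2b1, which encodes a subunit of the clathrin adaptor, had 35.9, 34.6 and 40.03 TPM in the gene table and 48.7, 36.1 and 53.2 TPM with the other quantifier. These genes were singled out after their values were seen.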
